A study of Caenorhabditis elegans with 6 samples.

Results

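The Hox genes ceh-13, lin-39, mab-5 and egl-5 of Caenorhabditis elegans, their cofactor genes ceh-20, ceh-40 and unc-62, and the GATA factor genes egl-18 and elt-6 were followed in pools of QR neuroblast descendants. These 9 genes were chosen by name among 14700 genes in the count table. Of the 9, 8 could be looked up, and ceh-20 was not analysed here. The ΔN-BAR-1 larvae carried mab-5(gk670), huIs166, ayIs9 and huIs179, and the series describes them as making BAR-1, a β-catenin, without its N terminus in the Q lineage. The control larvae carried mab-5(gk670), huIs166 and ayIs9, so that both groups shared the mab-5 deletion allele and differed by huIs179. Larvae of both groups were in the first stage and had been fed for 7 hours after arrest. The labels do not name the promoter of huIs179, nor what huIs166 expresses; ayIs9 is known as a reporter of egl-17, a gene of the early Q lineage. There were 3 libraries in each group, each made from a pool of 2000 cells.

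Hox genes encode homeodomain transcription factors that give cells their position along the body axis. Their proteins bind DNA together with cofactors of the PBC class (CEH-20 and CEH-40, relatives of Extradenticle) and the Meis class (UNC-62, a relative of Homothorax). In the Q neuroblasts, mab-5 is known as the gene that Wnt signalling through BAR-1 switches on in the left-hand lineage, where it directs migration towards the posterior, and lin-39 is known for promoting anterior migration of the right-hand lineage. In vulval precursor cells, lin-39 is a known Wnt target, and egl-18 and elt-6 act downstream of LIN-39 and Wnt signalling. Of the genes followed, mab-5, lin-39, egl-18 and elt-6 are thus known to respond to this pathway, in the left-hand Q lineage or in vulval precursor cells. The comparison asks how the genes of the set stood in QR descendants of ΔN-BAR-1 and of control larvae.

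Library totals ran from 190078 to 237644 estimated transcripts in ΔN-BAR-1 libraries and from 68431 to 254362 in control libraries, the lowest being control replicate 3. The labels do not tell whether the replicates were grown separately. P-values then speak for the spread among these libraries alone, and part of it may be technical. Transcripts of bar-1 numbered 3, 4 and 8 in ΔN-BAR-1 libraries and 1, 4 and 0 in control libraries, which does not check the transgene, since 3′ counting sees it only if it carries the bar-1 3′ end. Of 5 genes used to mark the Q lineage, all 5 were detected and tested, and their summed level was 2478 to 3321 CPM (counts scaled to the library sizes) in ΔN-BAR-1 libraries and 2599 to 3310 CPM in control libraries. These like sums hold members that stood in opposite directions. The proneural gene lin-32 had 34, 52 and 28 transcripts in ΔN-BAR-1 libraries and 61, 135 and 23 in control libraries, and its groups stood apart in CPM (log2 fold change −1.24 ± 0.34, SE; edgeR adjusted p = 0.0685). The touch neuron gene mec-3 rose (2.71 ± 0.41, edgeR adjusted p = 0.000832), while egl-17 stood at −0.93 ± 0.56, the POU homeobox gene unc-86 at −0.16 ± 0.31 and mig-13 at 0.28 ± 0.31. Defining genes of some other cells were at 0 in every library, among them the cuticle collagen genes dpy-7 and rol-6, the intestinal factor gene elt-2, the pharyngeal factor gene pha-4, the muscle factor gene hlh-1 and the motor neuron factor gene unc-3. Other markers of the same cells were present, so these zeros do not show that the cells were absent. Of 9 hypodermis and seam markers 6 were detected, with lin-26 at a mean of 246 CPM over all 6 libraries. The muscle gene lev-11 averaged 232 CPM. Summed markers of body wall muscle (7 of 8 detected) ran from 2631 to 16590 CPM in ΔN-BAR-1 libraries and from 5047 to 7444 CPM in control libraries, mostly from the myosin gene unc-54. In ΔN-BAR-1 replicate 3, unc-54 stood at the ceiling of estimates in that column (15580 CPM, against 2272 and 7218 CPM in replicates 1 and 2). This ceiling lay above the highest estimate of any gene in every other library, and the cause of that was not tested. The highest sum may therefore be too high beside those of the other libraries. Without unc-54 the sums were 359 to 1014 CPM in ΔN-BAR-1 libraries and 366 to 1795 CPM in control libraries. The myosin gene myo-3 had 0, 1 and 0 transcripts in ΔN-BAR-1 libraries and 0, 0 and 1 in control libraries. Whether the unc-54 counts came from muscle was not tested, and a transgene carrying the unc-54 3′ end would be counted there too. The part of muscle RNA in the Hox gene levels was not tested. Motor neurons of the ventral cord also use lin-39 and mab-5; their summed markers (5 of 6 detected, with few transcripts each) were 0 to 14.7 CPM in ΔN-BAR-1 libraries and 21.3 to 49.4 CPM in control libraries, and their part was not tested. In this sum unc-17 and cha-1, which have identical counts in every library, were taken once, which, like the muscle sum without unc-54, was chosen after the values were seen. The summed markers of intestine, pharynx and germline were each at most 40.7 CPM in ΔN-BAR-1 and 82.3 CPM in control libraries.

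No gene of the set passed the test between ΔN-BAR-1 and control libraries. Of 5 genes that had enough counts to be tested (lin-39, mab-5, unc-62, egl-18 and elt-6), 0 passed an adjusted p of 0.05 in edgeR's quasi-likelihood test, where 1.65% of 3447 tested genes passed (57 genes, 1.57% higher and 0.087% lower). The count was also 0 at an unadjusted p below 0.05, which 11.6% of all tested genes reached, and 0 by DESeq2 and by limma-voom. The groups overlapped in each of the 5 genes, and they stood apart in 17.4% of all tested genes. With only 5 genes, these counts of 0 do not set them apart from all tested genes. The median log2 fold change of the 5 genes was −0.22, and that of all tested genes was 0.00031. These are pools of cells, in which fewer cells expressing a gene and less of its RNA per cell cannot be told apart.

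**Figure D1:**
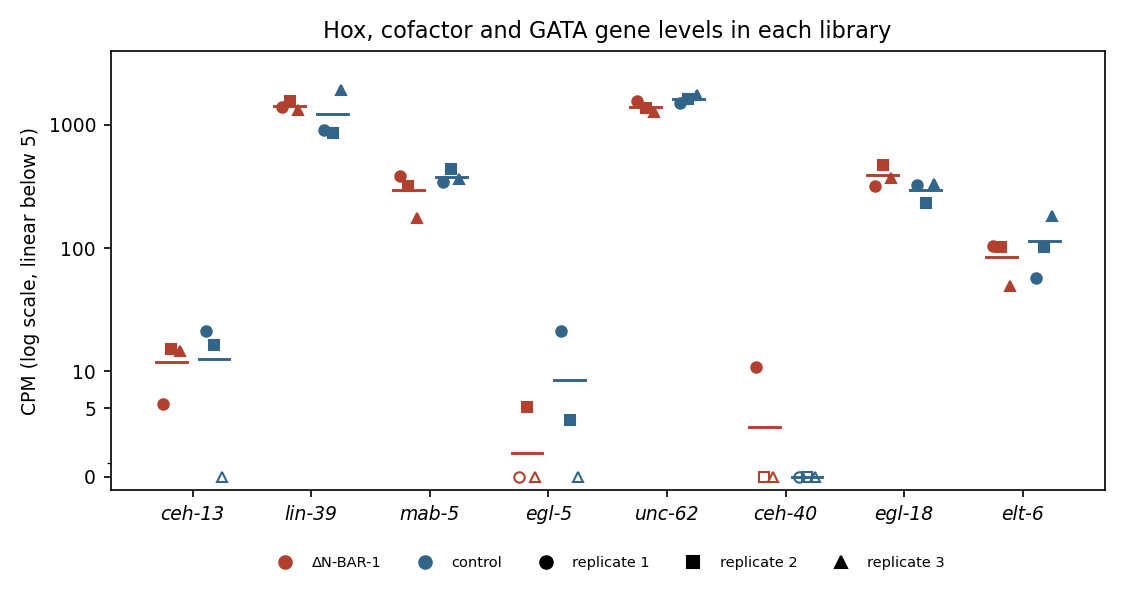
Level of each gene in each library, in CPM on an axis that is logarithmic above 5 and linear below it. Points are single libraries (red ΔN-BAR-1, blue control, shape for the replicate number, open at 0) and bars are means of 3; lin-39 and unc-62 lie at 859.6 CPM or more in every library, while ceh-13, egl-5 and ceh-40 lie at 21.3 CPM or less.

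The Hox gene lin-39 was, with unc-62, the most abundant of the set. It had 1408, 1566 and 1322 CPM in ΔN-BAR-1 replicates 1 to 3 and 902, 859.6 and 1910.4 CPM in control replicates 1 to 3, from 116 to 308 transcripts a library. The 3 ΔN-BAR-1 libraries lay close together, between the low replicates 1 and 2 and the high replicate 3 of the control group. Means were 1432 ± 124 CPM in ΔN-BAR-1 libraries and 1224 ± 595 CPM in control libraries (SD, n = 3 each), with a log2 fold change of 0.25 ± 0.34 (SE; edgeR quasi-likelihood adjusted p = 0.881). The 95% interval of the fold change ran from 0.727 to 1.95. Control replicate 3, the shallowest library, set much of this value. Without it the log2 fold change was 0.69 ± 0.36 (edgeR adjusted p = 0.604), and without control replicate 1 or 2 it was 0.04 or 0.01. On distinct identifiers, before the correction for identifiers shared by chance, the log2 fold change was −0.0215 ± 0.32 (SE; edgeR adjusted p = 0.992). Its sign turned there, but the value was far smaller than its SE.

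The spread of lin-39 within the control group was wider than counting gave. Its coefficient of variation was 8.63% over ΔN-BAR-1 libraries and 48.6% over control libraries, where counting alone would give 8.07% and 9.75%. These counting values include the error that the identifier correction adds.

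The Hox gene mab-5, for which all larvae carried the deletion allele gk670, was counted in all 6 libraries. It had 386, 320.2 and 176 CPM in ΔN-BAR-1 replicates 1 to 3 and 341, 436 and 362 CPM in control replicates 1 to 3. Of the ΔN-BAR-1 libraries, replicate 1 lay within the control range, replicate 2 just below it and replicate 3 well below it. The log2 fold change was −0.38 ± 0.34 (SE; edgeR quasi-likelihood adjusted p = 0.783), with a 95% interval of the fold change from 0.468 to 1.26. Without ΔN-BAR-1 replicate 3 the log2 fold change was −0.15 ± 0.37 (edgeR adjusted p = 0.953), and without ΔN-BAR-1 replicate 1 it was −0.62 ± 0.34 (edgeR adjusted p = 0.411). The sources used here do not place the deletion relative to the counted 3′ end, so these counts say nothing on whether a functional transcript was made.

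The anterior Hox gene ceh-13, the labial relative, and the posterior Hox gene egl-5, the Abdominal-B relative, were at the limit of detection. For ceh-13 there were 1, 3 and 3 transcripts in ΔN-BAR-1 libraries and 3, 4 and 0 in control libraries. Both groups summed to 7 transcripts, which on their library sizes gave a ratio of 0.760 with a 95% counting interval from 0.228 to 2.54. For egl-5 there were 0, 1 and 0 transcripts in ΔN-BAR-1 libraries and 3, 1 and 0 in control libraries. Their sums of 1 and 4 gave a ratio of 0.190 with a 95% counting interval from 0.00386 to 1.92. These intervals hold counting error only and leave out the spread between libraries. Changes inside them were not detectable at this depth, and some outside them may not have been either. Neither gene reached the count needed for the test.

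Among the cofactors, the Meis-class gene unc-62 lay at a level like that of lin-39. It had 1549, 1372.5 and 1268 CPM in ΔN-BAR-1 replicates 1 to 3 and 1506, 1637 and 1746 CPM in control replicates 1 to 3. The groups overlapped through 1 library only, ΔN-BAR-1 replicate 1, which lay just above control replicate 1. The log2 fold change was −0.22 ± 0.30 (SE; edgeR quasi-likelihood adjusted p = 0.881), and the 95% interval of the fold change, from 0.557 to 1.32, was the narrowest of the 5. Its coefficient of variation, 10.2% over ΔN-BAR-1 libraries and 7.38% over control libraries, stood against counting values of 8.10% and 9.14%. The PBC-class gene ceh-40 was counted in 1 library only, with 2, 0 and 0 transcripts in ΔN-BAR-1 libraries and 0 in each control library. No fold is given for ceh-40, since both groups were at or under the floor of 3 transcripts over a group, which equals 5.13 CPM in ΔN-BAR-1 and 6.75 CPM in control libraries. The annotated gene xtr-2 overlaps ceh-40 on the opposite strand, and the sources used here do not say whether strand was used in counting. Non-coding genes lie opposite lin-39 (2 genes), egl-18 (3 genes) and egl-5 (1 gene) in the same annotation. Whether reads of the 2 strands were kept apart there in counting is likewise not known.

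The GATA factor gene egl-18 had 321, 473 and 372 CPM in ΔN-BAR-1 replicates 1 to 3 and 327, 230.3 and 329 CPM in control replicates 1 to 3. In 2 of 3 ΔN-BAR-1 libraries it exceeded every control library, and in replicate 1 it lay within the control range. The log2 fold change was 0.42 ± 0.33 (SE; edgeR quasi-likelihood adjusted p = 0.722), with a 95% interval of the fold change from 0.834 to 2.14. Its neighbour elt-6, which encodes a closely related GATA factor, had 103, 102 and 49.0 CPM in ΔN-BAR-1 replicates 1 to 3 and 56.8, 103 and 181 CPM in control replicates 1 to 3. The elt-6 values of the 2 groups lay across each other, from only 8 to 25 transcripts a library. Its log2 fold change was −0.31 ± 0.49 (SE; edgeR quasi-likelihood adjusted p = 0.886), with a 95% interval of the fold change from 0.396 to 1.63. Without control replicate 3 it was 0.04 (edgeR adjusted p = 0.996). Seam cells are known for strong use of egl-18 and elt-6. The 9 hypodermis and seam markers (6 detected) summed to 190.2 to 475 CPM in ΔN-BAR-1 libraries and 304 to 362 CPM in control libraries. In every library lin-26 made the largest part of this sum. It had 179, 300 and 313 CPM in ΔN-BAR-1 replicates 1 to 3 and 178, 160 and 346 CPM in control replicates 1 to 3. The collagen genes dpy-7 and rol-6 added nothing to it. The part of hypodermis and seam cells in the egl-18 and elt-6 values was not tested.

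**Figure D2:**
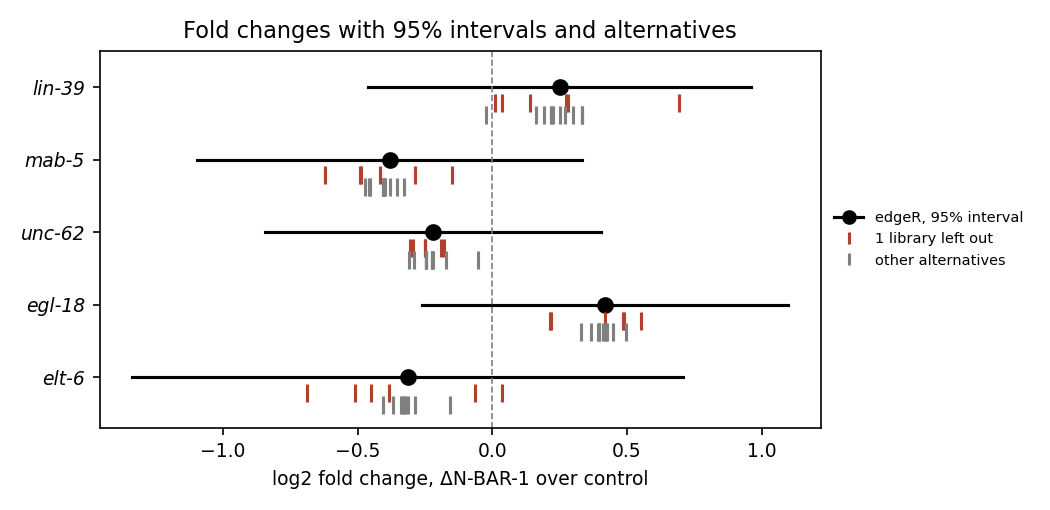
Log2 fold change of ΔN-BAR-1 over control for the 5 tested genes (black points) with 95% intervals (black lines), and below each the values with 1 library left out (red ticks) and under the other alternatives (grey ticks). Every interval crosses 0; the ticks of lin-39 reach from −0.02 to 0.69 and those of elt-6 from −0.69 to 0.04.

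Since 3′ ends were counted, levels of different genes can be set side by side without regard to length. They are estimates, corrected for transcripts that share a molecular identifier by chance, and for abundant genes they rest on that correction. For lin-39, 163, 179 and 167 distinct identifiers in ΔN-BAR-1 libraries and 100, 143 and 93 in control libraries became 259, 308 and 270 transcripts and 127, 209 and 116. In ΔN-BAR-1 libraries the order of mean levels was lin-39 (1432 CPM), unc-62 (1397), egl-18 (389), mab-5 (294), elt-6 (84.6), ceh-13 (11.8), ceh-40 (3.62) and egl-5 (1.69). In control libraries it was unc-62 (1629 CPM), lin-39 (1224), mab-5 (379.7), egl-18 (295), elt-6 (114), ceh-13 (12.6), egl-5 (8.47) and ceh-40 (0). The mean over all 6 libraries placed unc-62 and lin-39 at the 98.9th and 98.7th percentiles of detected genes, egl-18 and mab-5 at about the 94th, and elt-6 at the 79.7th.

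Neighbours in this order were not separated in every case. Within single libraries, lin-39 exceeded unc-62 in 3 of 6 and mab-5 exceeded egl-18 in 4 of 6. By contrast, lin-39 exceeded mab-5, egl-18 and elt-6 in 6 of 6 libraries, unc-62 did so likewise, and egl-18 and mab-5 each exceeded elt-6 in 6 of 6. The steps from lin-39 and unc-62 down to mab-5 and egl-18, and from those down to elt-6, therefore held in every library, whereas the order inside each of the upper pairs did not.

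Ratios inside a library do not depend on scaling between libraries. The share of lin-39 in the summed counts of lin-39 and mab-5 was 78.5%, 83.0% and 88.2% in ΔN-BAR-1 replicates 1 to 3 and 72.6%, 66.3% and 84.1% in control replicates 1 to 3. All 3 ΔN-BAR-1 libraries lay above the lower 2 control libraries, and replicate 3 lay above all 3. The means were 83.2% ± 4.88 in ΔN-BAR-1 and 74.3% ± 8.98 in control libraries (SD, n = 3 each), a difference of 8.92 percentage points (two-sided exact permutation p = 0.3). The smallest p that 3 against 3 libraries allow is 0.1.

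The share of egl-18 in the summed counts of egl-18 and elt-6 was 75.6%, 82.3% and 88.4% in ΔN-BAR-1 replicates 1 to 3 and 85.2%, 69.1% and 64.5% in control replicates 1 to 3. The groups overlapped, and the 95% exact binomial interval of control replicate 3, from 45.4% to 80.8%, was wide because the share rested on 31 transcripts. The difference between group means was 9.16 percentage points (two-sided exact permutation p = 0.3). Over all 10 pairs of the 5 tested genes, chosen after their values were seen, the within-library log2 ratio gave non-overlapping groups in 0 pairs. The largest difference was that of mab-5 to egl-18, with a mean log2 ratio of −0.46 ± 0.68 in ΔN-BAR-1 libraries and 0.37 ± 0.48 in control libraries (SD, n = 3 each; exact permutation p = 0.3, adjusted p = 0.5 over the 10 pairs).

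**Figure D3:**
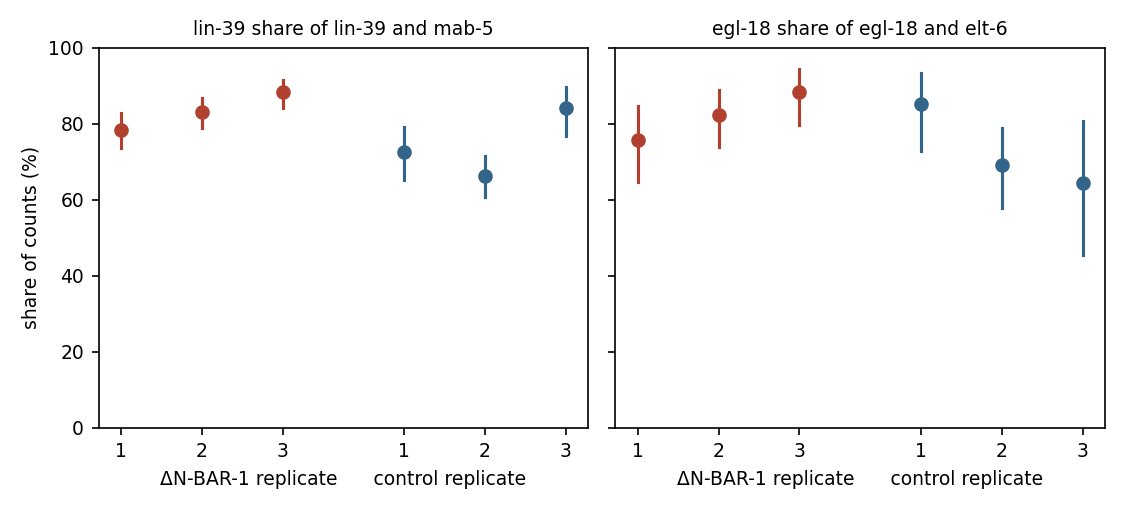
Share of lin-39 in the counts of lin-39 and mab-5 (left) and of egl-18 in the counts of egl-18 and elt-6 (right), in percent, for ΔN-BAR-1 replicates (red) and control replicates (blue). Lines are 95% exact binomial intervals, which take the estimates as counts and leave out the error of the identifier correction; in both panels the groups overlap, with 84.1% in control replicate 3 on the left and 85.2% in control replicate 1 on the right.

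Other genes of the same families were mostly at or near 0. Among 7 further Hox, caudal and TALE homeobox genes, the posterior Hox gene nob-1 had 1 transcript in all 6 libraries together, as did the PBC-class gene ceh-60 and the Meis-class gene psa-3, and pal-1 and vab-7 had 0. The iroquois-type gene irx-1 was the only one tested, with 2, 21 and 9 transcripts in ΔN-BAR-1 libraries and 8, 12 and 6 in control libraries and a log2 fold change of −0.21 ± 0.65 (edgeR adjusted p = 0.957). Among 9 other GATA factor genes, 0 were tested and 3 were detected. These were elt-1 and elt-3, which act in the hypodermis, with 4 transcripts each in ΔN-BAR-1 libraries and 3 and 0 in control libraries, and the intestinal gene elt-7 with 1 and 0. Of all GATA factor genes looked up, egl-18 and elt-6 were the only ones with enough counts to be tested.

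Regulators of Hox transcription were looked at next. Of 18 Polycomb-like and trithorax-like genes, 12 were tested and 0 passed, where 1.65% of all tested genes did. An unadjusted p below 0.05 was reached by 1 of the 12 and by 11.6% of all tested genes. The median log2 fold change of the 12 was 0.23. The H3K27 demethylase gene jmjd-3.1 had the smallest p, with 61, 11 and 45 transcripts in ΔN-BAR-1 libraries and 10, 20 and 8 in control libraries (log2 fold change 1.17 ± 0.54, edgeR adjusted p = 0.395). Further members near the top were egl-27 at 0.75 ± 0.42 and the demethylase gene utx-1 at −0.68 ± 0.43. Of 6 transcription factor genes reported upstream, 3 were tested and 0 passed. They were the TCF gene pop-1 at 0.62 ± 0.35, the Groucho gene unc-37 at −0.26 ± 0.35 and the histone deacetylase gene hda-1 at −0.34 ± 0.31. The pop-1 groups stood apart, as did those of 17.4% of all tested genes. Its levels were 1381, 2882 and 1381 CPM in ΔN-BAR-1 replicates 1 to 3 and 973, 1365.5 and 1350.5 CPM in control replicates 1 to 3.

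Over all tested genes, 1.57% passed the test as higher. Of 6 genes listed as downstream of Hox proteins, 5 were tested and 2 rose, mec-3 and mig-1. The list was written with their increase already known, so the count is no independent evidence, and mig-1, a Frizzled gene, is better known as a Wnt-responsive gene than as a Hox target. The touch neuron selector gene mec-3, a LIM homeobox gene that Hox proteins help to keep on, had 105, 79 and 57 transcripts in ΔN-BAR-1 libraries and 8, 18 and 3 in control libraries (log2 fold change 2.71 ± 0.41, edgeR adjusted p = 0.000832). The call of mec-3 held without any single library, and that of mig-1 (1.52 ± 0.38, edgeR adjusted p = 0.0415) ended when any 1 control library was left out (edgeR adjusted p = 0.300, 0.145 and 0.157) and when ΔN-BAR-1 replicate 2 was (edgeR adjusted p = 0.0959). The transmembrane gene mig-13, through which lin-39 is known to promote anterior migration of the QR lineage, had 1033, 757 and 916 CPM in ΔN-BAR-1 replicates 1 to 3 and 660.5, 675 and 922 CPM in control replicates 1 to 3. The mig-13 groups overlapped through control replicate 3, the shallowest library, and the log2 fold change was 0.28 ± 0.31 (edgeR adjusted p = 0.840). The cell death gene egl-1, a Hox target in ventral cord cells, stood at −0.14 ± 0.53 and the semaphorin gene mab-20 at −0.34 ± 0.34. The mesoderm factor gene hlh-8 was below the count needed for the test, with 0, 1 and 10 transcripts in ΔN-BAR-1 libraries and 1, 0 and 0 in control libraries.

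**Figure D4:**
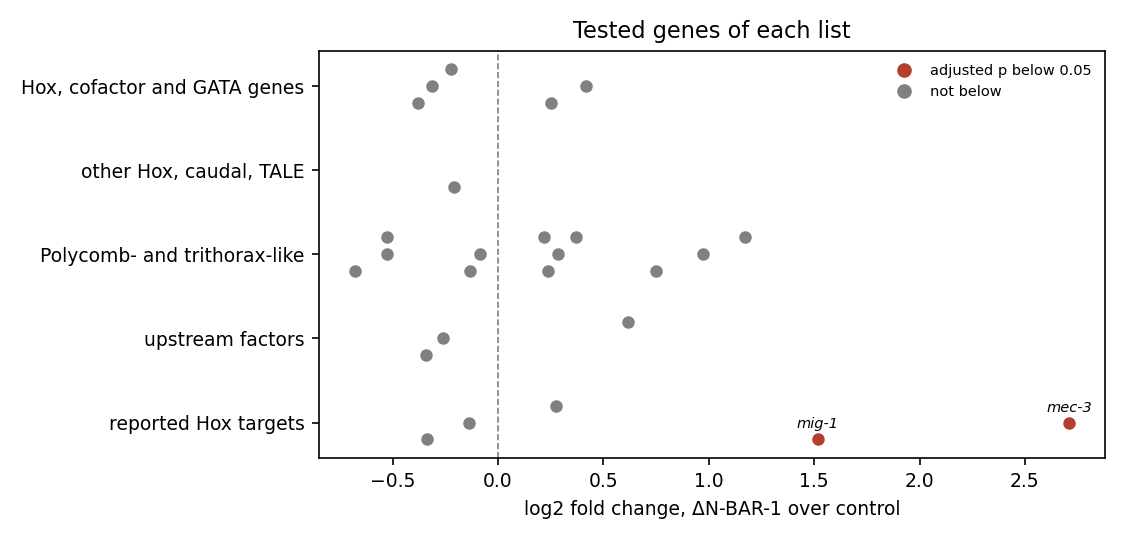
Log2 fold change of ΔN-BAR-1 over control for every tested gene of each list, with points spread vertically for legibility only; red marks an adjusted p below 0.05 in edgeR's test. Only mec-3 (2.71) and mig-1 (1.52) are red, and all 5 tested Hox, cofactor and GATA genes lie between −0.38 and 0.42.

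The genes whose levels followed each tested gene most closely over the 6 libraries were found by the root mean square difference of log2 CPM after centring. For lin-39 they were K11H3.3 and F53H1.1 (0.0681 and 0.0820, where the median over all tested genes was 0.622), for mab-5 ifg-1 and his-24 (0.0980 and 0.106), for unc-62 T12A2.7 and nhr-91 (0.0564 and 0.0749), for egl-18 tfg-1 and unc-108 (0.0978 and 0.131), and for elt-6 smu-2 and F17A9.2 (0.162 and 0.206). No gene of the set was among the closest to another of the set. With 3447 genes and 6 libraries, such likeness is a description of these libraries alone.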

How the data were processed

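Poly(A) RNA of 6 pools was measured. Per the labels' protocols, reverse transcription and amplification followed CEL-seq and library preparation CEL-seq2, so 3′ ends were counted. The deposited table holds estimated counts, 1 column a library, with no scaling between libraries by the authors; the sources used here name no aligner, build, annotation or strand setting. The values were those of a correction for chance meetings among 256 molecular identifiers: undoing it gave whole identifier numbers (tolerance 0.02) for at least 99.96% of values above 0, with the column of ΔN-BAR-1 replicate 3 rescaled and rounded.

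Counts were rounded and tested with edgeR 4.0.16 in R 4.3.3 (TMM, filterByExpr with min.count 10 and min.total.count 15, robust quasi-likelihood F test, two-sided, Benjamini-Hochberg over 3447 genes, threshold 0.05), with group as the only term. Standard errors and 95% intervals of log2 fold changes came from the F statistics and total degrees of freedom. CPM used the TMM-scaled library sizes of that fit; 1 transcript equalled 4.11 to 16.5 CPM. The steps were run on simulated data with a common dispersion for all genes. That simulation left out the identifier correction, so it does not test the steps for abundant genes such as lin-39 and unc-62. Chi-square per degree of freedom between same-group libraries was 2.33 to 8.53. It was set against plain counting noise, without the error that the identifier correction adds.

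Members and lists were chosen with earlier results of these data known. All 9 genes are named, with every list gene past the threshold or otherwise up to 3 of smallest p, and 2 genes of most similar pattern per tested gene; other genes were chosen after their values were seen. DESeq2 1.42.0, limma-voom (limma 3.58.1), other scalings, filters, identifier treatments, thinning, a replicate block and omission of each library were alternatives. Coordinates and sequences are not used here. The motif search planned for promoters was not run.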

Additional observations from a re-analysis of the deposited data

How the results depend on the processing

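Across the alternatives 0 of the tested members were called in any of them, and the lowest adjusted p was 0.411, for mab-5 without ΔN-BAR-1 replicate 1. Signs turned in 2 cases, both at values far smaller than their SE. These were lin-39 at −0.0215 ± 0.32 with distinct identifiers, and elt-6 at 0.0378 ± 0.53 without control replicate 3. Log2 fold changes ran from −0.02 to 0.69 for lin-39, −0.62 to −0.15 for mab-5, −0.31 to −0.05 for unc-62, 0.21 to 0.55 for egl-18 and −0.69 to 0.04 for elt-6, which had too few counts under the stricter filter and after thinning. The lin-39 share differed by 4.93 to 13.8 percentage points and the egl-18 share by 4.94 to 15.3 without single libraries. Over all genes, 101 changed without a filter, 35 with the stricter filter (min.count 30), 9 with limma-voom, 113 at a threshold of 0.1, and 16 to 121 without single libraries; apart from the number of genes tested, the cause was not tested. A fit with the replicate block gave 19 changed genes (18 of them shared) and 0 members, with lin-39 at 0.33 and mab-5 at −0.41; same-numbered libraries correlated at −0.16, −0.08 and −0.04 after group means were subtracted, so the numbers give no sign of pairing. Depth limits ceh-13, egl-5 and ceh-40 most in control replicate 3, where 3 transcripts amount to 49.4 CPM.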

Other observations

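In the reference annotation used only for gene order, lin-39 and ceh-13 are direct neighbours on chromosome III, on opposite strands, and egl-18 and elt-6 are direct neighbours on chromosome IV, on the same strand. The neighbours differed widely in level: lin-39 averaged 1432 CPM in ΔN-BAR-1 and 1224 CPM in control libraries, and ceh-13 11.8 and 12.6 CPM. On the other side of egl-18 lies egl-4, a cGMP-dependent protein kinase gene, also on the same strand, with 234, 295 and 485 CPM in ΔN-BAR-1 replicates 1 to 3 and 269.9, 144 and 181 CPM in control replicates 1 to 3 (log2 fold change 0.78 ± 0.38, edgeR adjusted p = 0.444). The gene between mab-5 and egl-5, cyk-7, had 0 transcripts in every library, while egl-45, on the far side of egl-5, averaged 284 CPM in ΔN-BAR-1 and 331 CPM in control libraries.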
